A study of Mus musculus with 49 samples.

Results

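Knock-in of a single-stranded oligodeoxynucleotide (ssODN) at Cas9 breaks was compared between a pool of mouse embryonic stem (mES) cells given 1 uM and the same pool given 8 uM of the ssODN. The units were integrated reporters (IRs), barcoded reporter genes at random places of the genome, each read separately through its barcode. IRs were taken by the name before the first dot of their entry, the entry with most reads stood for each IR, and those with 30 or more reads at both concentrations were kept. This left 1894 of the 2888 IRs that both tables hold, against 3517 IRs in the 6 pool tables made with the same guide RNA, and the comparison uses 2 of the 49 samples of the series.

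The study followed the repair of Cas9 cuts across the mouse genome with TRIP, in which PiggyBac transposons carry barcoded reporters into the DNA of many cells. The pool, GEMP-O, was grown from a limited number of EBRTcH3 mES cells, which express the tTA transactivator from the ROSA26 locus, and its EGFP reporters carry 1 of 7 promoters, the viral CMV promoter or those of p53, PGK, Oct4, Nanog, Hoxb1 and cMyc. For both samples, cells received by nucleofection a plasmid with Cas9, mCherry and the guide sgRNA2 together with the ssODN, were sorted for mCherry and were then expanded before the reporter ends were amplified and sequenced. Each concentration is 1 sample with 1 table of counts, so there are no replicates and no spread between cultures to set a difference against. The study says in general that its targeting assays were run in triplicate and merged.

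The concentrations come from the sample labels. The protocols used here give a mass of ssODN and not these concentrations, and the labels give no concentration for the other ssODN libraries of the pool. Every IR was built with the same target, while IRs differ in place, promoter and founder cells.

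Cas9 makes a double-strand break at the place its guide RNA pairs with. Cells mostly rejoin the ends by end joining, which can leave small deletions or insertions, and can also copy a homologous template by homology-directed repair. An ssODN with arms that match both sides of the break is such a template, and it leaves its insert in the repaired DNA. Reads were sorted into wild-type, deletion, insertion, complex (a mix of changes) and HR, the last being reads with the insert of the ssODN.

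The template and the target are shown first, since the classes of reads below are defined by changes at the target and by the template's insert. The template is given around its junction, with the insert of 21 bases in capitals and 20 bases of each arm in lower case. The target of sgRNA2 is given 5′ to 3′ with its PAM, the motif Cas9 needs beside the pairing stretch, in capitals.
template junction: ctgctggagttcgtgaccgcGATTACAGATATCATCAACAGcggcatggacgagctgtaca
sgRNA2 target: cgccgggatcactctcggcaTGG
The template lacks the first 15 bases of the guide's pairing stretch and holds the insert in their place, a net gain of 6 bases. Cas9 cuts 3 bases from the PAM, so that 2 bases of the template's right arm lie before the cut. The pairing stretch has a GC content of 70%.

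The genomic surroundings of 13 IRs whose HR shares are described below are shown next, to say where in the genome they lie. Those of IR7453, which lies in an exon, and of the IRs described for their mutated share or read number are not shown. Each line gives 84 bases of the plus strand of mm9 around the TTAA into which PiggyBac inserts, with TTAA in capitals. A TTAA stood at the mapped place of 1831 of the 1894 IRs (96.7%).
IR44792, chr14:45049244-45049327 (+): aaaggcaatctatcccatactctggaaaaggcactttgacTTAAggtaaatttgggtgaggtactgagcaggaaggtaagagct
IR11716, chr3:133994157-133994240 (+): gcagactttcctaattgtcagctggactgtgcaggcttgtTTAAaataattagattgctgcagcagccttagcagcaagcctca
IR21644, chr6:100561173-100561256 (+): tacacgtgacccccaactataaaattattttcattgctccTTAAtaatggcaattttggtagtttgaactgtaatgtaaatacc
IR41432, chr13:12125193-12125276 (+): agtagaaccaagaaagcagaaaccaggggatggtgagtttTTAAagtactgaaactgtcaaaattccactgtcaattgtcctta
IR42169, chr13:43310908-43310991 (+): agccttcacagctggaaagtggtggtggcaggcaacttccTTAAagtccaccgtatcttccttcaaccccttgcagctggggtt
IR19246, chr5:145549620-145549703 (+): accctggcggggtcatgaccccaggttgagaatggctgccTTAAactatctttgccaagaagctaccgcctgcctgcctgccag
IR1519, chr1:71402678-71402761 (+): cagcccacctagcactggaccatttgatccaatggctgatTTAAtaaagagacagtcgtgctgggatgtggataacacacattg
IR17007, chr5:64170805-64170888 (+): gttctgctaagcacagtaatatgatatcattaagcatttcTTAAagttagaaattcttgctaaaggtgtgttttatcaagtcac
IR12867, chr4:38054348-38054431 (+): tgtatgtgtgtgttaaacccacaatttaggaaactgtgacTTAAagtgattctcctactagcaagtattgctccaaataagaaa
IR14484, chr4:116690380-116690463 (+): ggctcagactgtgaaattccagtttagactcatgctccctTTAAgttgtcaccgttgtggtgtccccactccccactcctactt
IR6464, chr2:83550305-83550388 (+): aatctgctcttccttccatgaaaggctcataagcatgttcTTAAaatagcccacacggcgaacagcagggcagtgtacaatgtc
IR22503, chr6:137316966-137317049 (+): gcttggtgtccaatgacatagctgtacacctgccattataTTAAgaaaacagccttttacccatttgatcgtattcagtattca
IR50710, chr16:55266042-55266125 (+): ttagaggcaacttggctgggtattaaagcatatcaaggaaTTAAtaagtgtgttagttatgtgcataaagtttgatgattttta
The first 4 had the highest mean HR share among IRs with 100 or more reads in both samples, the next 5 a higher and the last 4 a lower HR share at 8 uM. None was chosen for its surroundings.

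The tables hold 2597271 reads at 1 uM and 2591465 at 8 uM, in 9718 and 7520 entries. The entries with most reads per IR hold 98.8% and 99.2% of these reads. An IR that was kept had a median of 168 reads at 1 uM (interquartile range 83 to 327) and 128 at 8 uM (66 to 259), so most shares below rest on rather few reads. Fewer reads were counted at 8 uM for 1315 IRs and more for 560, although the totals are nearly equal. The read numbers of the IRs were correlated between the samples, with r = 0.965 on the log10 scale over 1894 IRs. These share the cell pool and the barcode composition. The read numbers still differed by more than counting error, with a chi-square of 11.8 per degree of freedom, and were within 1.5-fold at 1405 IRs.

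A small group of IRs takes most reads. These 18 IRs, each with 5000 or more reads in both samples, hold 79.3% of the reads of the kept IRs at 1 uM and 81.7% at 8 uM. Their mutated share, the reads with any change at the target as a percentage of the IR's reads, was 1.17% ± 0.141 (SD over 18 IRs) at 1 uM and 1.17% ± 0.157 at 8 uM. HR reads made up 0.0111% and 0.0135% of their pooled reads. They were hardly edited in either sample, and a share pooled over all reads is mainly a share of these 18 IRs.

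Averaged over the kept IRs, the share of mutated reads was higher at 8 uM. The mean mutated share was 21.5% ± 24.1 (SD over 1894 IRs) at 1 uM and 25.8% ± 25.9 at 8 uM, a difference of 4.33 percentage points. Counting error alone gives this difference a 95% half-width of 0.218 points. The share was higher at 8 uM at 1264 IRs, lower at 558 and equal at 72. The median over IRs was 10.7% and 18%, while the median of the differences at single IRs was 2.15 points. The SD over IRs describes how loci differ and is no error of the concentration, and intervals cover counting error only, since PCR reads are not independent molecules.

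Pooled over reads, the order turned. Mutated reads were 5.51% of all reads of the kept IRs at 1 uM (95% Wilson interval 5.48 to 5.54) and 5.43% at 8 uM (5.40 to 5.46). Without the 18 IRs, the pooled share was 22.2% at 1 uM and 24.5% at 8 uM. Wild-type reads of these 1876 IRs numbered 411053 and 354037, a ratio of 0.861, whereas mutated reads numbered 117303 and 114867, a ratio of 0.979. The same could be seen IR by IR at the 1001 of them with 10 or more wild-type and mutated reads in both samples: wild-type reads had a median log2 ratio of -0.47 and mutated reads of -0.02. All reads of these 1876 IRs numbered 528356 at 1 uM and 468904 at 8 uM, so these ratios depend on the depth left to them, and they do not say which kind of read differed. The part of unequal sampling of IRs in the mutated share was not tested.

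**Figure D1:**
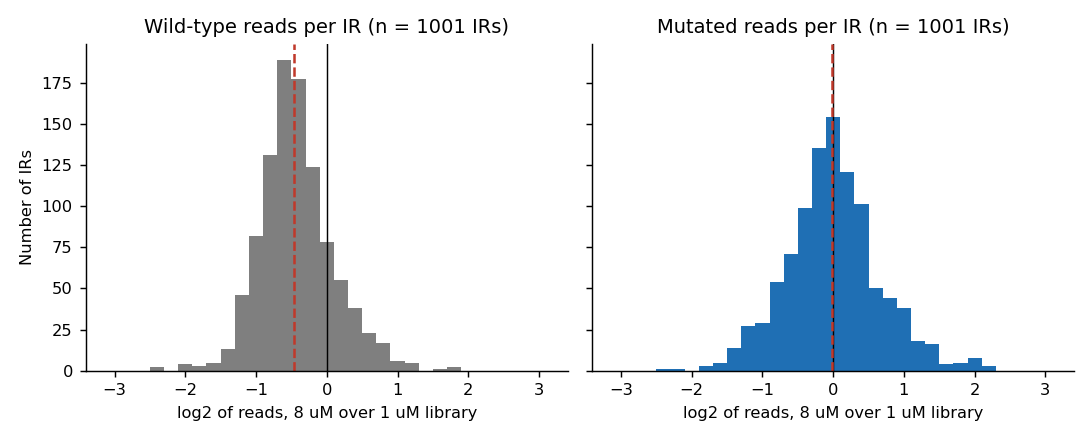
Log2 ratio of reads at 8 uM to reads at 1 uM per IR, for wild-type and for mutated reads, at the 1001 IRs under 5000 reads with 10 or more reads of both kinds in both samples. The median is -0.47 for wild-type and -0.02 for mutated reads.

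Deletions made up most of the difference. The mean deletion share of reads was 16.5% at 1 uM and 20.0% at 8 uM, higher at 1217 IRs and lower at 561. Insertions without the template's insert were 2.17% and 2.47%, higher at 793 IRs and lower at 531. Complex reads were 1.97% and 2.16%. All 4 classes of mutated read had a higher mean at 8 uM, and the deletion class had the largest difference in percentage points, 3.53.

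HR reads, those with the insert, were rare at both concentrations and had a higher mean at 8 uM. Their mean share of reads was 0.862% ± 2.36 (SD over 1894 IRs) at 1 uM and 1.17% ± 2.60 at 8 uM, a ratio of 1.36. The difference of 0.312 points has a counting half-width of 0.0549. It was higher at 8 uM at 467 IRs and lower at 269, while 1158 IRs had no HR read in either sample. Pooled over reads, HR was 0.247% (0.241 to 0.253) and 0.258% (0.252 to 0.265), and without the 18 IRs 1.15% and 1.35%. An 8-fold higher concentration of ssODN thus went with a mean HR share higher by less than 2-fold in these samples.

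**Figure D2:**
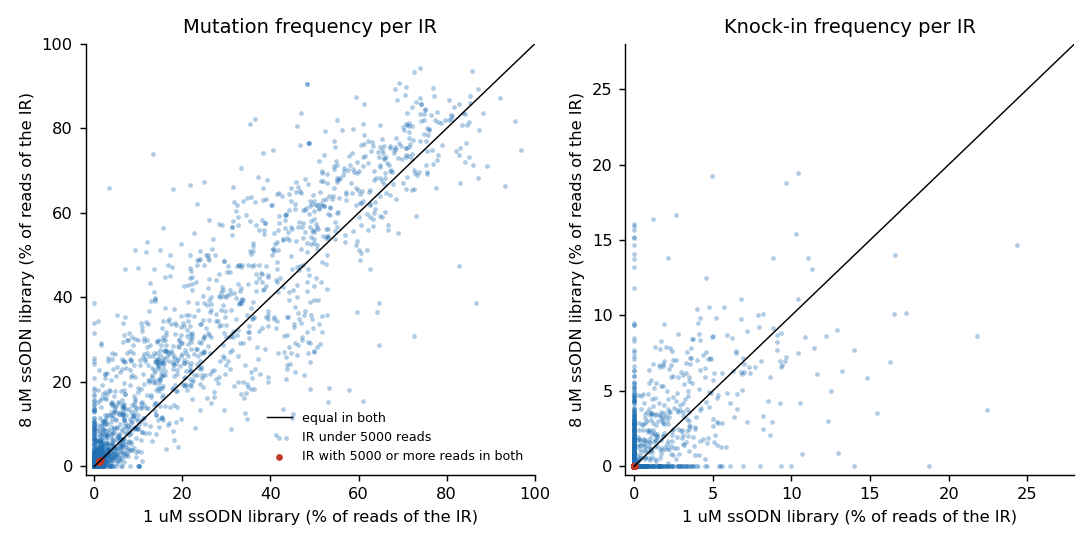
Mutated share and HR share of reads per IR at 1 uM (horizontal) and 8 uM (vertical), 1 point per IR, for 1894 IRs. Most points of the mutated share lie above the line of equal shares, 1264 against 558 below, and most IRs have no HR read in either sample.

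Per mutated read, the insert was somewhat more frequent at 8 uM, and the mix of the other classes was close. At the 1047 IRs with 10 or more mutated reads in both samples, HR was 3.07% ± 5.39 (SD over IRs) of mutated reads at 1 uM and 3.63% ± 4.90 at 8 uM, a ratio of 1.18. The difference of 0.559 points has a counting half-width of 0.204. With a minimum of 100 reads it was 0.275 points, a ratio of 1.08, with a half-width of 0.200 (683 IRs). Over the 1047 IRs, the median of differences was 0. HR was higher at 406 IRs, lower at 267 and equal at 374. The ratio of 1.18 per mutated read is smaller than the ratio of 1.36 per read, which was taken over all kept IRs.

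Deletions were 77.9% ± 15.2 and 78.3% ± 11.8 of mutated reads. Insertions were 10.2% ± 11.2 and 9.80% ± 7.85, a difference of -0.394 points, and complex reads were 8.84% ± 9.00 and 8.30% ± 7.44, a difference of -0.539 points. The counting half-widths were 0.551 points for deletions, 0.410 for insertions and 0.381 for complex reads. They exceed the differences for deletions and insertions, which were not detectable at these 1047 IRs, nor with a minimum of 100 reads. Without the 10% of IRs with most reads, the differences passed their half-widths, 0.646 points for deletions (0.589) and -0.483 for insertions (0.443). Among IRs with reads within 1.5-fold, insertions did so too, at -0.809 points (0.447). The difference for complex reads exceeds its half-width at the 1047 IRs, but not with a minimum of 100 reads. There it was -0.239 points with a half-width of 0.423. With 100 or more mutated reads it was -0.801 points with a half-width of 0.336, so its size depends on the IRs kept. Weighted by reads, HR was 4.56% (4.45 to 4.67) of mutated reads at 1 uM and 4.89% (4.78 to 5.01) at 8 uM. At 252 IRs with 100 or more mutated reads in both samples, where single shares are better measured, HR was 5.28% ± 4.77 and 5.61% ± 3.96.

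The number of IRs with a knock-in read was higher at 8 uM. At least 1 HR read was found at 497 IRs (26.2%) at 1 uM and at 606 (32%) at 8 uM, of which 367 were the same. These 367 are 73.8% of the first and 60.6% of the second list. Thinned to the smaller of the 2 read numbers at each IR, the expected numbers were 472 and 598, so the difference was also there at equal depth. For the IRs without an HR read, 3 counts of the total give a median upper limit of 2.22% at 1 uM and 2.80% at 8 uM, and HR below that could not be seen. Where both samples had HR reads, the median share was 2.50% and 3.42%, higher at 8 uM at 228 IRs and lower at 139.

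Knock-in reads outnumbered insertions at few IRs. HR reads exceeded insertion reads at 189 IRs at 1 uM and 184 at 8 uM, and 45 IRs were in both lists. They were fewer than insertion reads at 826 and 960 IRs, and equal to them at 879 and 750. Over the kept IRs, the ratio of the mean HR share to the mean insertion share was 0.397 at 1 uM and 0.475 at 8 uM.

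Single IRs were compared by a two-sided Fisher's exact test of their reads, adjusted by Benjamini-Hochberg over all IRs in both tables and called at an adjusted p under 0.05. The test compares these 2 libraries, not the concentrations, and treats reads as independent. With all counts divided by 10, as if fewer molecules stood behind the reads, it called 0 IRs for any of the shares tested, so every call and p below holds only for reads counted singly. The mutated share was higher at 8 uM at 352 kept IRs (18.6%), against 13.6% of all 2888 IRs tested, and lower at 43 (2.27%), against 1.73% of all. At the 352, the median share was 21.1% at 1 uM and 46.3% at 8 uM. At the 43 it was 48.5% and 21.5%. Calls of a higher share were thus the more frequent, as the means were higher.

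Calls of HR were few. The HR share of reads was higher at 8 uM at 16 IRs, 0.554% of those tested, and lower at 7, 0.242% of those tested, and all 23 were kept IRs. Without adjustment, 130 were higher and 48 lower at p under 0.05. The 16 had a median HR share of 0.940% at 1 uM and 6.90% at 8 uM, and 10 of them also had a higher mutated share, while 1 had a lower one. The 7 had 9.31% and 1.85%, and 2 of them had a higher mutated share. As a share of mutated reads, HR was higher at 11 kept IRs, against 0.574% of the 1915 tested, and lower at 18, against 0.992%. Without adjustment, 98 of those tested were higher and 64 lower, the opposite order, so these calls give no direction for the insert per mutated read.

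The 16 IRs with a higher HR share carried Hoxb1 (7), CMV (3), Nanog (3) and Oct4 (3) promoters, which 35.6%, 12.8%, 13.6% and 12.1% of all kept IRs carry. The largest of these differences with 100 or more reads in both samples were as follows. IR42169, a Nanog reporter in an intron of Gfod1, had 4 HR reads of 185 at 1 uM (2.16%, 0.844 to 5.43) and 25 of 181 at 8 uM (13.8%, 9.53 to 19.6, exact adjusted p = 0.00834). IR19246, a Hoxb1 reporter in an intron of Trrap, a subunit of histone acetyltransferase complexes, had 0 HR reads of 147 (limit 2.04%) and 11 of 117 (9.40%, 5.33 to 16.1, exact adjusted p = 0.0178). IR1519, a Nanog reporter in an intron of the lipid transporter Abca12, had 2.25% (1.26 to 3.99) and 7.87% (5.57 to 11.0, exact adjusted p = 0.0232). At IR42169 and IR19246 the mutated share was not called, whereas at IR1519 it rose too, from 54.7% to 75.6%, and HR as a share of mutated reads was not called.

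IR17007, a Hoxb1 reporter in an intron of 3110047P20Rik, had 11 HR reads of 694 at 1 uM and 46 of 683 at 8 uM, 1.59% (0.887 to 2.82) and 6.73% (5.09 to 8.87, exact adjusted p = 0.000522). IR12867, a Hoxb1 reporter in an intergenic stretch of chromosome 4, had 1.87% (0.952 to 3.65) and 6.99% (4.91 to 9.86, exact adjusted p = 0.0401). At IR12867 the mutated share rose too, from 56.7% to 70.6%, and HR as a share of mutated reads was not called. The deepest of the 5, IR17007, has the most reads behind its value and the smallest p of them.

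The IRs with a lower HR share carried Oct4 (3), p53 (3) and CMV (1) promoters, which 12.1%, 12.8% and 12.8% of all kept IRs carry, and these few calls say nothing about promoters. IR22503, an Oct4 reporter in an intron of the receptor phosphatase gene Ptpro, had 31 HR reads of 333 at 1 uM (9.31%, 6.64 to 12.9) and 0 of 252 at 8 uM (limit 1.19%, exact adjusted p = 2.23e-05). IR7453, a p53 reporter in a coding exon of Polr1b, a subunit of RNA polymerase I, had 38 of 355 (10.7%, 7.90 to 14.4) and 2 of 243 (0.823%, 0.226 to 2.95, exact adjusted p = 0.000245). IR6464, a p53 reporter in an intergenic stretch of chromosome 2, had 94 of 578 (16.3%, 13.5 to 19.5) and 42 of 606 (6.93%, 5.17 to 9.24, exact adjusted p = 0.000245). Mutated shares of these 3 were not called. Deletion shares were not tested.

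IR14484, an Oct4 reporter 1586 bases from Eif2b3, a subunit of a translation initiation factor, had 13.0% at 1 uM (9.12 to 18.1) and 0.862% at 8 uM (0.152 to 4.72, exact adjusted p = 0.0113). IR50710, a p53 reporter in an intron of Zpld1, had 8.63% (6.38 to 11.6) and 2.11% (1.07 to 4.10, exact adjusted p = 0.00834).

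The same IRs in the other 3 ssODN libraries of the pool all had HR reads. IR22503, with no HR read at 8 uM, had 3.57%, 14% and 14.2% there, and IR19246, with none at 1 uM, had 4.00%, 14.2% and 8.05%. The value of 0 was thus found in 1 of 5 ssODN libraries at each of these 2 IRs.

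**Figure D3:**
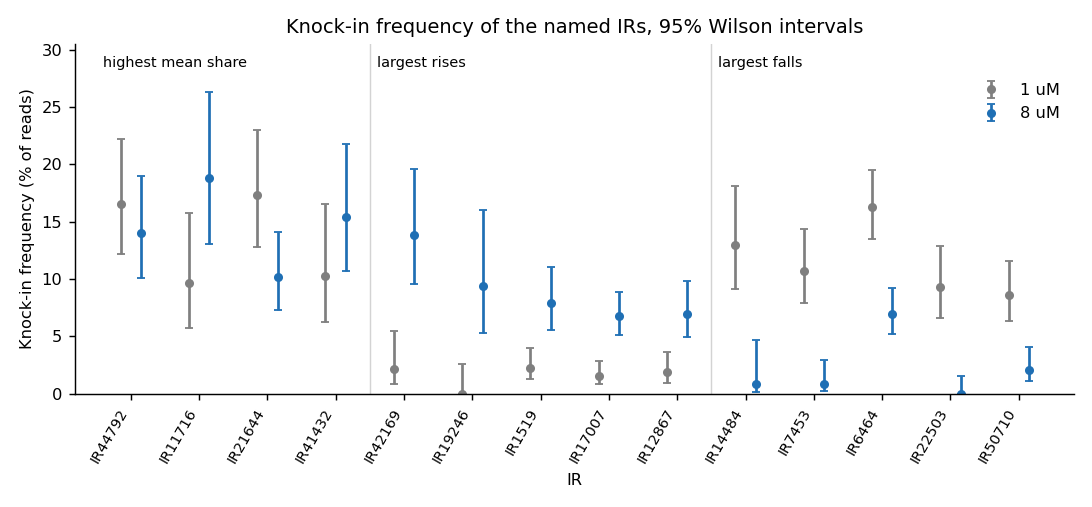
HR share of reads with 95% Wilson intervals at 1 uM and 8 uM for the 14 IRs described for their HR share. The shares of IR22503 are 9.31% and 0%, those of IR42169 are 2.16% and 13.8%, and intervals cover counting error only.

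Among IRs with 100 or more reads in both samples, the highest mean HR shares were found at IR44792, IR21644, IR11716 and IR41432. IR44792, a p53 reporter 3487 bases from Gm8232 on chromosome 14, had 35 HR reads of 211 at 1 uM (16.6%, 12.2 to 22.2) and 33 of 236 at 8 uM (14%, 10.1 to 19.0). IR21644, a Nanog reporter in an intron of Shq1, had 17.3% (12.8 to 23.0) and 10.2% (7.28 to 14.1). IR11716, a Nanog reporter in an intergenic stretch of chromosome 3, had 9.63% (5.71 to 15.8) and 18.8% (13.1 to 26.3). IR41432, a CMV reporter in an intron of the calcium channel gene Ryr2, had 10.3% (6.23 to 16.5) and 15.4% (10.7 to 21.8). None of the 4 passed the test of HR, 2 being higher and 2 lower at 8 uM, and their mutated shares were all between 65.4% and 89.5%. The mutated share rose at the pair with a lower HR share at 8 uM, from 65.4% to 77.5% at IR44792 (exact adjusted p = 0.0338) and from 76.9% to 89.5% at IR21644 (exact adjusted p = 0.00279).

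Among called IRs with 100 or more reads in both samples, the largest differences in mutated share lay at other IRs. IR13823, an Oct4 reporter in an intron of Sh3gl2, had 23.4% mutated reads at 1 uM (16.5 to 32.1) and 62.0% at 8 uM (53.7 to 69.7, exact adjusted p = 2.11e-07). IR56409, a Hoxb1 reporter in an intron of the channel kinase Trpm6, had 15.0% and 51.2% (exact adjusted p = 7.96e-07), and IR54882, a Hoxb1 reporter on chromosome 18, had 11.8% and 50.7% (exact adjusted p = 4.16e-09). In the opposite direction, IR14894, a Hoxb1 reporter in an intron of Zbtb8b, had 45.2% (36.7 to 53.9) and 12.5% (7.45 to 20.2, exact adjusted p = 4.62e-06). IR58984, a CMV reporter in an intron of the growth factor gene Figf, had 49.1% and 24.8% (exact adjusted p = 0.00465), and IR39980, a Hoxb1 reporter on chromosome 12, had 45.5% and 22.3% (exact adjusted p = 0.000529). HR reads were absent or at most 4 at these 6 IRs in both samples, so they differed in deletions and other classes.

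The 4 IRs with most reads, IR24235, IR52633, IR54318 and IR8077, show the precision that depth gives. Their mutated shares at 1 uM and 8 uM were 1.09% and 1.00% for IR24235, a Hoxb1 reporter on chromosome 7, and 0.979% and 1.00% for IR52633, a p53 reporter on chromosome 17. They were 1.14% and 1.03% for IR54318, a Nanog reporter on chromosome 18, and 1.22% and 1.31% for IR8077, an Oct4 reporter in an intron of Cbfa2t2. Of the 4, IR54318 alone passed the test of the mutated share (exact adjusted p = 0.0199), in the direction of a lower share at 8 uM. With 137878 to 158420 reads each, the test can call differences that would go unseen at an IR of median depth.

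Knock-in was more frequent at IRs that were mutated more often. IRs were grouped by their mutated share in the pool given sgRNA2 without ssODN, a library not used to choose the IRs. With 0 to 10% mutated there, the mean HR share of reads was 0.0492% ± 0.477 at 1 uM and 0.0368% ± 0.231 at 8 uM (642 IRs). It was 0.297% and 0.452% for 10 to 30% (298 IRs), and 0.653% and 1.06% for 30 to 50% (201 IRs). It was 2.17% ± 2.69 and 3.11% ± 3.49 for 50 to 70% (215 IRs), and 5.02% ± 4.70 and 5.92% ± 3.56 for 70 to 100% (170 IRs). HR thus increased along these groups in both samples, and its mean was higher at 8 uM in every group but the least mutated. In that group the difference of -0.0124 points lay within its counting half-width of 0.0250. With a minimum of 100 reads, the HR difference for 50 to 70% was smaller, 0.54 against 0.94 points. For 10 to 30% it was 0.082 against 0.155 points, below the counting half-width of 0.0970 of that whole group.

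The share of mutated reads that held the insert also increased along the groups. It was 1.28% and 1.15% in the least mutated group, 4.11% and 4.95% for 50 to 70%, and 7.17% and 7.95% in the most mutated group. Mutated shares were higher at 8 uM in all 5 groups, by means of 2.78% and 3.60% in the least and 66.8% and 72.9% in the most mutated. The libraries without ssODN and with it share the cell pool, and 368 IRs had too few reads there to be grouped.

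**Figure D4:**
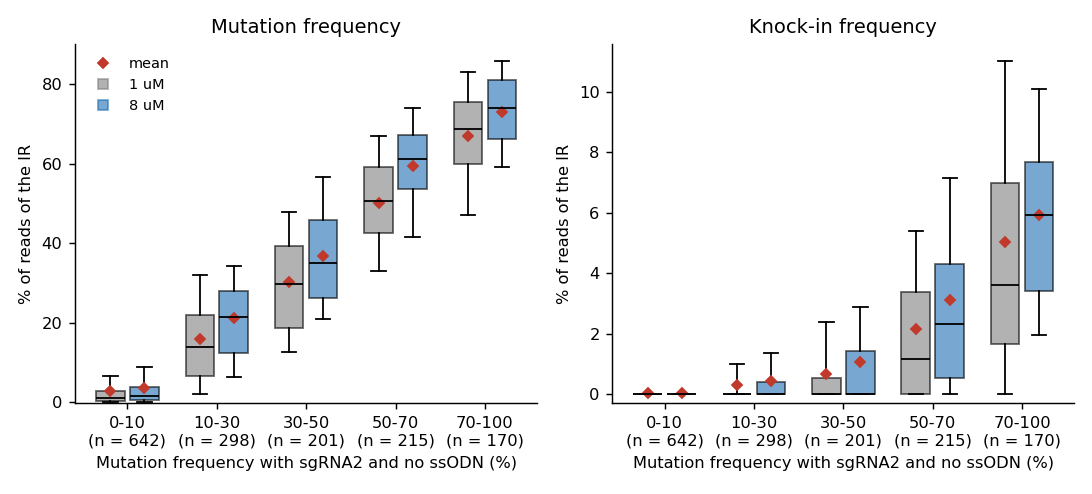
Mutated share (left) and HR share (right) of reads per IR at 1 uM and 8 uM, by the mutated share with sgRNA2 and no ssODN. Boxes span the interquartile range, whiskers the 10th to the 90th percentile, and diamonds are means, which for HR go from 0.0492% and 0.0368% in the least mutated group to 5.02% and 5.92% in the most mutated one.

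By promoter, mean mutated shares were higher at 8 uM for all 7. They were 19.3% and 23.5% for CMV (243 IRs), 20.6% and 24.5% for Hoxb1 (674 IRs), and 22.9% and 27.7% for cMyc (171 IRs). Nanog reporters had 22.1% and 26.1% (257 IRs) and p53 reporters 22.7% and 27.5% (243 IRs). Oct4 reporters had 23.7% and 28.9% (230 IRs), and PGK reporters, the smallest group, 20.6% and 24.5% (76 IRs). The promoter means thus spanned 19.3% to 23.7% at 1 uM and 23.5% to 28.9% at 8 uM. Differences between promoters were not tested.

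Mean HR shares were higher at 8 uM for each promoter too. They were 0.584% and 1.03% for CMV, 0.754% and 1.06% for Hoxb1, 0.920% and 1.56% for Nanog, and 0.647% and 1.23% for PGK. They were 1.06% and 1.21% for Oct4, 0.958% and 1.1% for cMyc, and 1.19% and 1.22% for p53. For the last 3 the difference lay within its counting half-width, and for Oct4 and cMyc it was -0.0212 and -0.0246 points with a minimum of 100 reads, so no difference was detectable there. With that minimum the difference was also smaller for Nanog, 0.329 against 0.644 points, and for PGK, 0.361 against 0.580 points.

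The reporter's expression and place were compared in the same way, with no test. IRs in the group of lowest expression before Cas9, taken as cDNA over genomic DNA counts of the barcode, had mean HR shares of 0.919% and 1.14%, those in the middle group 0.649% and 1.03%, and those in the highest 1.02% and 1.35% (631 IRs each). Mutated shares were 20.4% and 24.9% in the lowest group and 23.7% and 28.1% in the highest. Of the kept IRs, 73 lie in exons, 853 in introns and 968 between genes, with mean HR shares of 1.04% and 1.46%, 0.867% and 1.23%, and 0.845% and 1.1%. The mutated share was higher at 8 uM on 20 of 20 chromosomes, by 2.58 points on chromosome 17 to 5.83 on chromosome 10, and the HR share on 19 of 20, the exception being chromosome 18. With a minimum of 100 reads the HR difference on chromosome 8 turned as well, from 0.0135 to -0.186 points. That minimum also lowered the HR difference in the middle expression group, from 0.384 to 0.227 points, and between genes, from 0.257 to 0.167 points.

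IRs were also grouped by depth. Mean HR shares were 0.483% and 0.957% at IRs with 30 to 50 reads and 1.24% and 1.48% at those with 500 to 5000, taking the smaller read number of both samples. The difference in mean mutated share was 5.18 points at IRs with 30 to 50 reads and 4.24 at 50 to 100. From 100 to 200 reads it was 4.58, and from 200 to 500 it was 4.76. At IRs with 500 to 5000 it was 1.89, with 116 IRs higher at 8 uM and 83 lower. At the 18 IRs with 5000 or more reads it was -0.00629 points, so the mean difference of 4.33 points does not describe the deepest IRs. Just inside the minimum, 208 IRs with 30 to 39 reads had mutated shares of 19.5% and 26.1%. Just outside it, 177 IRs with 20 to 29 reads had 19.2% and 22.7%. The mean HR shares of these groups were 0.501% and 1.03%, and 0.745% and 1.37%, so both sides of the minimum had the same direction.

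The likeness of both samples across IRs was described by correlations. Pearson's r over the 1894 IRs was 0.911 for the mutated share (rho = 0.894) and 0.569 for the HR share of reads (rho = 0.588). For shares of mutated reads over 1047 IRs, it was 0.196 for deletions, 0.0128 for insertions and 0.270 for HR. With 100 or more mutated reads (252 IRs), these were 0.496, 0.271 and 0.533. The values for shares of mutated reads were thus higher where more mutated reads stood behind them, and they were not set against what counting error alone would give. These IRs share libraries and founder cells.

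HR shares were set beside those of the other ssODN libraries of the pool. At 1437 IRs with 30 or more reads in all 6 sgRNA2 libraries, the mean HR share was 1.07% ± 2.59 (SD over IRs) at 1 uM and 1.39% ± 2.79 at 8 uM, and 1.61% ± 3.08 in the ssODN assay, 5.81% ± 6.86 in the first and 3.92% ± 5.11 in the second additional experiment. As a share of mutated reads (854 IRs) it was 3.48%, 3.93%, 3.95%, 15.6% and 9.47%. The 1 uM and 8 uM samples and the ssODN assay were thus the 3 lowest of 5, and the 8 uM value lay nearer to the assay than the 1 uM value did. The labels do not give the ssODN concentration of the other 3, so no order by concentration can be drawn.

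The libraries also differ in how far the 18 IRs dominate. These hold 78.8% of the reads at 1 uM, 81.2% at 8 uM and 81.4% in the assay, but 19.8% in the first and 67.5% in the second additional experiment. Their own mutated share was 1.15%, 1.15% and 1.24% in the first 3, and 6.84% and 2.36% in the additional ones. The part of this difference between libraries in the HR shares was not tested. By the same test of reads, 15.3% of IRs differed in mutated share between 1 uM and 8 uM, against 10.9%, 17.7% and 19.1% for the 3 pairs of other ssODN libraries. In HR share, 0.796% differed, against 15.4%, 6.71% and 6.57%. In HR share of mutated reads, 1.57% differed, against 21.7%, 7.04% and 11% for the same pairs. HR reads were 0.248% of all reads at 1 uM and 0.265% at 8 uM. They were 0.332% in the assay, and 7.89% and 1.85% in the additional experiments. The test can call fewer IRs where HR reads are fewer, so the HR calls do not show which libraries are more alike.

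**Figure D5:**
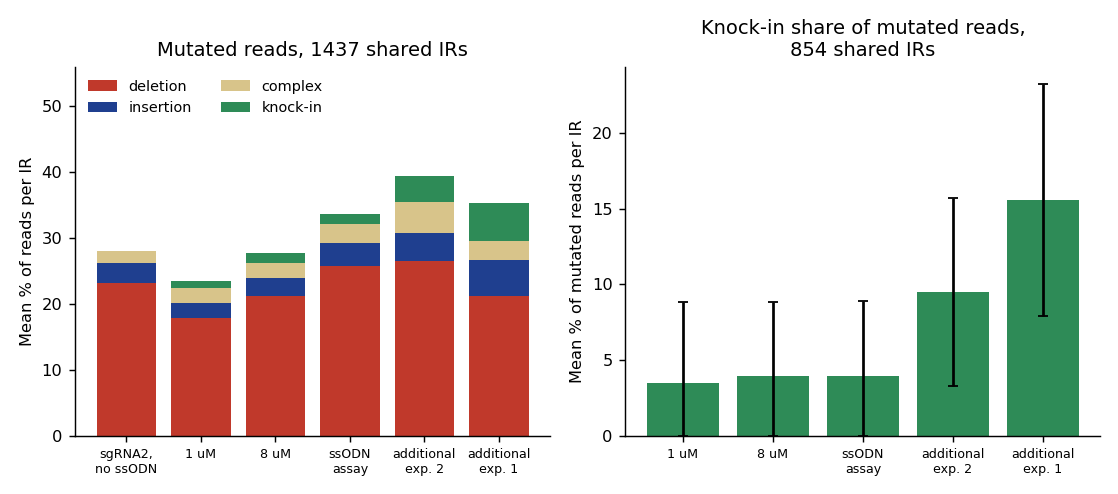
Left, mean shares of reads by class in the 6 sgRNA2 libraries at 1437 IRs; right, HR share of mutated reads at 854 IRs, with lines for the SD over IRs that stop at 0. HR of mutated reads is 3.48% at 1 uM and 3.93% at 8 uM, against 15.6% and 9.47% in the additional experiments.

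The number of libraries with knock-in was counted per IR. HR reads were found in all 5 ssODN libraries at 313 of the 1437 IRs, and in none at 284. The median mutated share without ssODN was 69.1% at the 313 and 0.594% at the 284. The 313 also had more reads, with a median of 355 at 1 uM against 238 at the 284, and the part of depth in finding an HR read was not tested here.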

How the data were processed

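The knock-in samples at 1 uM and 8 uM ssODN were compared from tables in which the authors deposited unnormalized read counts per barcode and lesion class (wild-type, deletion, insertion, complex, HR), joined to IRs mapped on mm9. The submitters' processing notes name Bowtie2 2.0. Reads had been aligned to the reporter, and the alignment score deposited for part of the reads of the cell line was not used. How the 12 UIDs labelled for each sample entered the counts is not given in the sources used here. Of the authors' columns, the IR positions and the cDNA and genomic DNA counts were used, and 11 others, named expr, mval and qmval or giving reads, quality and frequency of the mapping, were not.

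For each IR the entry with most reads was taken. Shares were averaged over IRs with 30 or more reads in both samples, and shares of mutated reads over those with 10 or more mutated reads. Single shares have 95% Wilson intervals, and a count of 0 a limit of 3 counts. Counting half-widths of mean differences combine the binomial errors of the IRs. Fisher's exact test (two-sided) was adjusted by Benjamini-Hochberg over all IRs in both tables, at 0.05. It was tested on simulated data that drew reads as independent, so this does not cover reads copied from the same molecule. Expression was the log2 ratio of scaled cDNA to genomic DNA counts with a pseudocount of 1, at 10 or more genomic DNA counts in each replicate. The place of IRs came from GENCODE annotation and mm9.

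The IRs described one by one were the 4 with most reads, the 4 with the highest mean HR share, and the 5 largest rises and 5 largest falls in HR share and 3 and 3 in mutated share among those past the test. The lists other than that of most reads were drawn from IRs with 100 or more reads in both samples. Members and lists were chosen with earlier results of these data known. Alternatives changed the read minimum, the entries used, the averaging, the IRs kept, the classes and the test. Python 3.11.15, numpy 2.4.6, pandas 2.3.3, scipy 1.17.1 and matplotlib 3.10.9 were used.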

Additional observations from a re-analysis of the deposited data

How the results depend on the processing

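Differences are 8 uM minus 1 uM in percentage points. In means over all IRs that an alternative kept, the mutated and HR shares stayed higher at 8 uM under every alternative run. Within groups of IRs, a minimum of 100 reads turned the HR difference for Oct4, to -0.0212, and for cMyc, to -0.0246. On chromosome 8 it turned to -0.186. Pooling all reads reversed the mutated share to -0.0813. Pooling gave 0.0115 for HR of reads, 0.33 for HR of mutated reads and 0.264 for insertions. The 18 IRs of 5000 or more reads carry most pooled reads: without them, an alternative chosen after seeing the data, pooling gave 2.3 for the mutated share and 0.2 for HR. The median of differences was 2.15 for the mutated share, 0 for HR of reads, 0 for HR of mutated reads, 0.151 for insertions, -0.885 for deletions and 0 for complex reads. A minimum of 10 reads gave 4.75 mutated and 0.402 HR, and one of 100 reads 4.08, 0.222 and, for HR of mutated reads, 0.275. Without the 10% of IRs with most reads, the mutated share differed by 4.62. Among IRs with reads within 1.5-fold, it was 4.69, HR 0.388, HR of mutated reads 0.8 and insertions -0.809. Leaving out complex reads gave -0.321 for deletions, and a minimum of 5 mutated reads 0.0462 for insertions. The cause was not tested.

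With a threshold of 0.01, the tests called 263 IRs for the mutated share, 11 for HR of reads and 14 for HR of mutated reads. With all counts divided by 10, a stand-in for fewer independent molecules, they called 0, 0 and 0, so the calls rest on each read being counted. A chi-square test called 15 for HR of reads. With 100 or more reads, the HR difference was 0.54 in the group of 50 to 70% mutated, 0.329 for Nanog, -0.0212 for Oct4, 0.227 for middle expression, 0.276 in introns and 0.167 between genes. The other 62 values under alternatives moved by less than their counting error or kept their count within 1.5-fold.

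No paired analysis was possible because each concentration is 1 sample, and leaving out a sample in turn was not possible either. Culture, sorting and library preparation cannot be told apart from the concentration. At IRs without an HR read, depth sets median limits of 2.22% and 2.80% on the share that was not seen.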

Other observations

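The IRs with a called difference in mutated share were also looked up in the ssODN assay of the pool. The 43 IRs with a lower share at 8 uM had a median of 95 reads in each sample, and 18 of them carried Hoxb1 promoters, as 35.6% of all kept IRs do. In the ssODN assay, 41 of them were measured, with a median mutated share of 49.3%, and 36 lay nearer to the 1 uM than to the 8 uM value. Of the 352 IRs called higher, 341 were measured there, with a median of 51.5%, and 313 lay nearer to the 8 uM value. Both groups were chosen for the difference between the samples, and the mean mutated share of the assay at 1437 shared IRs, 33.7%, was above those of both samples, 23.4% and 27.7%, so nothing particular to the called IRs follows from these counts.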
